A study of Mus musculus with 2 samples.

Results

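The 30 genes described here encode enzymes of the tricarboxylic acid (TCA) cycle and of the reactions that feed and drain it, among them the itaconate-making enzyme and the enzymes that handle glutamine, glutamate and aspartate. They and the gene lists set beside them were chosen by symbol, with earlier results of these data known. Their levels and shared directions may therefore partly restate that choice. Each symbol was looked up in the transcript identifiers and joined by gene identifier to the gene tables, and all 30 were found among the 55536 annotated genes. The RNA-seq libraries were made from polyadenylated RNA of bone marrow-derived macrophages, which are primary cells grown from the marrow of C57BL/6J mice. All cells had been exposed to a ligand, 100 ng/ml for 30 min. The labels' free text names it lipid A, the part of lipopolysaccharide that TLR4 senses, while the source and treatment labels name lipoprotein A and type it as a protein. The labels do not settle which was used. The series held 2 libraries, biological replicates 1 and 2 of 1 group, which have a biosample record each and share a donor record, and sex and age were not collected. No genetic change is named, and no untreated cells were analysed here, so nothing below shows induction or repression by the ligand. A single group allows no comparison of conditions, and the values below carry no p-values.

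The TCA cycle oxidises acetyl-CoA in the mitochondrial matrix. Pyruvate dehydrogenase makes that acetyl-CoA from pyruvate, citrate synthase joins it to oxaloacetate, and successive dehydrogenases return the carbon skeleton to oxaloacetate while reducing electron carriers. Macrophages are known to redraw this map when activated through Toll-like receptors. The enzyme ACOD1, also called IRG1, then diverts cis-aconitate into itaconate, citrate is exported and cleaved for lipid synthesis, and glutamine carbon enters the cycle through glutamate and 2-oxoglutarate. Several steps exist as a mitochondrial and a cytosolic enzyme made from separate genes, and others as complexes whose subunits come from separate genes.

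Of the sequences below, the first pair are promoters. They belong to Acod1, the member that differed most between the libraries, and to Glul, glutamine synthetase, the most abundant member. Both are the 250 bases before the gene's start in RefSeq on GRCm38.p6, plus strand, 5′ to 3′. Capitals mark matches, on either strand, to any of 6 motifs. Among them are the TATA box (TATAAA), the CCAAT box (CCAAT), the GC box (GGGCGG) and the AP-1 site (TGANTCA). The others are the interferon-stimulated response element (ISRE, GAAANNGAAA) and the kB site, searched by a strict consensus that opens with GGG. The window of Acod1 is chr14:103046762-103047011, and its capitals are a CCAAT box read on the reverse strand 103 to 107 bases before the start and a TATA box 23 to 28 bases before it.
Acod1 promoter: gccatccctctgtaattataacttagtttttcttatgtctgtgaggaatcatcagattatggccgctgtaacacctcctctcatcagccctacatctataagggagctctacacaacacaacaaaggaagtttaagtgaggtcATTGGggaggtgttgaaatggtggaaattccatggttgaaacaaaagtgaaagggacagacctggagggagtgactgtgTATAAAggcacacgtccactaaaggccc
The window of Glul is chr1:153899679-153899928, and its capitals are a reverse-strand ISRE 166 to 175 bases before the start, a CCAAT box at 109 to 113 bases, another at 46 to 50 bases and a GC box at 28 to 33 bases.
Glul promoter: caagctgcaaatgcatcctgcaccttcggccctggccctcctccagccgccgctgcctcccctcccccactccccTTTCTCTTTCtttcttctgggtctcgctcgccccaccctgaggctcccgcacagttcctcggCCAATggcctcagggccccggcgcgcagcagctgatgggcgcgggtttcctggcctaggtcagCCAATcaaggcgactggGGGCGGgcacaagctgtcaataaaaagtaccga
The RefSeq start of Acod1 lies 35 bases downstream of that in the annotation used for counting, and that of Glul 15 bases upstream. The Acod1 TATA box thus lies downstream of the annotated start of the transcript used for counting.

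Promoters in RefSeq were matched for 27 of the 30 members, 35 promoters in all because some genes have several starts. Each search covered 300 bases, 250 before and 50 after the start. A TATA box stood in 2 of the 35 member promoters, those of Acod1 and Got2, against 13.6% of all 32851 promoters of the same length. A CCAAT box stood in 23 of 35, or 65.7%, against 37.4% of all, and a GC box also in 23 of 35 against 35.7%. The AP-1 letters were found in 1 member promoter, of Me1, against 7.81% of all promoters. The ISRE letters were found in 2, of Glul and Suclg2, against 3.44%. The kB consensus was found in 7 of 35, or 20% (all: 8.46%), and not in the window of Acod1. That window does hold a near match, tggaaattcc, which lacks only the first G and so was not marked. These are matches of letters and show no binding.

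The other sequences are alternative coding exons of Acly and Ogdh, shown because reads were divided between transcripts that hold them and transcripts that do not. Each is read from the GENCODE transcript that holds it (mm10), 5′ to 3′ on the transcript's strand, with the exon in capitals between 20 bases of each neighbouring exon. Acly, ATP citrate lyase, cleaves exported citrate into cytosolic acetyl-CoA. The 30-base exon 14 of transcript Acly-203 is chr11:100503160-100503189, minus strand, and is skipped in Acly-201.
Acly-203 exon 14: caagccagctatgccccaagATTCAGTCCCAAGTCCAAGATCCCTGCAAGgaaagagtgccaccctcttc
Ogdh encodes the decarboxylating subunit of the 2-oxoglutarate dehydrogenase complex. At its exon 4, transcript Ogdh-201 holds 103 bases at chr11:6316978-6317080 and transcript Ogdh-202 holds 91 bases at chr11:6316765-6316855, both on the plus strand. The annotated coding sequences are complete in both, 3069 and 3057 bases.
Ogdh-201 exon 4: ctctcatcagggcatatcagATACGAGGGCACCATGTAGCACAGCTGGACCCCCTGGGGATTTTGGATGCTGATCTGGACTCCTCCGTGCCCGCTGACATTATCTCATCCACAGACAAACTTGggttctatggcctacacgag
Ogdh-202 exon 4: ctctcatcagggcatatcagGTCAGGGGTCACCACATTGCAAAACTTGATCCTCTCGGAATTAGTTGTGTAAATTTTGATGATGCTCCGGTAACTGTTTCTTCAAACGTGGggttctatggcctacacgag

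Depth over annotated genes was 37784941 expected counts in replicate 1 and 51904470 in replicate 2. Protein-coding genes detected in both libraries took 86.9% and 92.5% of these counts. Levels are given as TPM, a relative abundance of messenger molecules scaled by transcript length, in replicate 1 and then replicate 2 where values come in pairs, and means are ± SD with n = 2. All 10 macrophage markers reached 1 TPM in both libraries (Cd68, 3702 and 3370 TPM). The 8 stromal markers were all below 1 TPM in both, as were 9 of 10 T and NK cell, 6 of 8 B cell and 6 of 7 erythroid markers. The exception among T cell genes was Cd4 at 111 and 82.2 TPM. Those among B cell genes were Ighm (11.98 and 18.65 TPM) and Cd79b (3.88 and 1.43 TPM), and the erythroid one was Epor (9.15 and 4.20 TPM). The libraries differed from each other. Summed over each list, 15 early inflammatory genes stood at 4856 and 9389 TPM, 15 interferon response genes at 1158 and 3028, 12 cell cycle genes at 568.5 and 326, and 12 neutrophil markers at 424 and 114.

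Nearly the whole set was expressed. In both libraries 28 of the 30 members reached 1 TPM, where 45.3% of 22028 protein-coding genes did, and 26 reached 10 TPM, where 28.4% did. The exceptions at 1 TPM were Pcx and Me1, and at 10 TPM also Acod1 and Pck2. The median of the members' mean levels was 48.2 TPM, against 17.5 TPM over the 9983 protein-coding genes detected. Together the members made up 2089 and 1826 TPM, or 0.299% and 0.269% of all counts. Glul and Idh1 alone held 16.9% and 12.3% of the members' TPM in replicate 1 and 12.4% and 11.3% in replicate 2. The order of the 30 levels was alike in the libraries, with Spearman's rho of 0.964 across genes, which share their library and are not independent replicates.

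**Figure D1:**
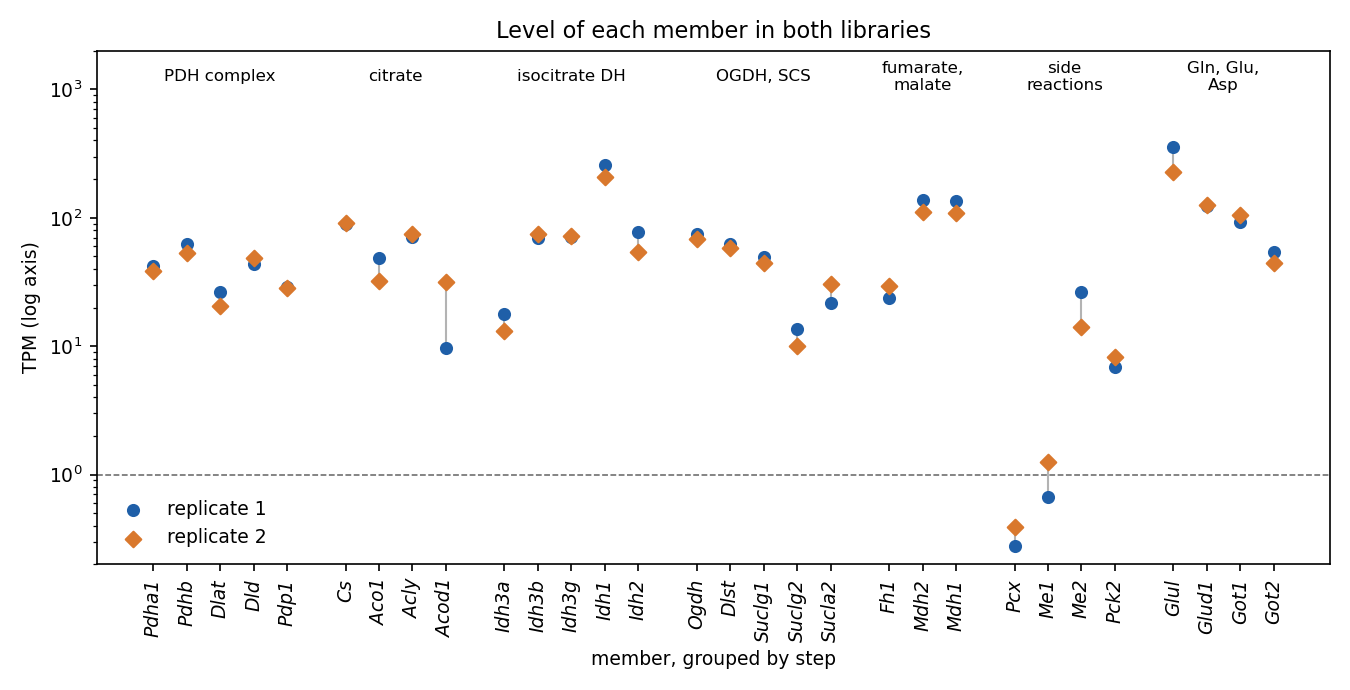
TPM (log axis) of each of the 30 members in replicate 1 (circles) and replicate 2 (diamonds), grouped by step. A grey line joins the libraries and the dashed line is 1 TPM. Glul, at 353 and 227 TPM, is highest in both, Pcx is lowest, and Acod1 and Me2 show the widest gaps among the members above 1 TPM.

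Entry of pyruvate into the cycle was covered by the subunits of pyruvate dehydrogenase and their phosphatase. Pdha1, the α subunit of the E1 component, stood at 41.8 and 38.5 TPM, and its partner Pdhb at 62.1 and 53.1. The β subunit was thus 1.48 and 1.38 times the α subunit, although the subunits pair in equal numbers in the enzyme. Dlat, the E2 acetyltransferase, was lowest of the group at 26.6 and 20.5 TPM. Dld, the dehydrogenase shared with the 2-oxoglutarate complex, stood at 44.0 and 48.8 TPM. Pdp1, the phosphatase that switches the complex on, was nearly equal in the libraries at 29.0 and 28.5 TPM. None of these 5 genes differed by more than 1.5-fold.

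The citrate genes held both steady and unsteady members. Cs, citrate synthase, stood at 89.3 and 91.5 TPM, a mean of 90.4 ± 1.51. Acly, which cleaves citrate after export, stood at 70.5 and 74.5 TPM. Its counts of 7186 and 10704 gave a scaled ratio of replicate 2 to replicate 1 of 1.00, with a 95% counting interval of 0.970 to 1.03. Aco1, the cytosolic aconitase that doubles as the iron-sensing RNA-binding protein IRP1, stood at 48.5 and 32.2 TPM.

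Acod1 (ENSMUSG00000022126.6, chr14:103046977-103056573, plus strand) stood at 9.67 and 31.5 TPM, from 570 and 2611 counts. It ranked 27th of the 30 members in replicate 1 and 20th in replicate 2, and its mean exceeded 54.7% of detected protein-coding genes. A single transcript, with 5 exons and a complete coding sequence of 1464 bases, is annotated and took all of its reads. The gene that diverts the cycle into itaconate was therefore expressed in both libraries, at a level below most of the cycle's own enzymes, and among members above 1 TPM it was the one that differed most between them.

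Isocitrate is oxidised by an NAD-dependent enzyme inside the cycle, made of the products of Idh3a, Idh3b and Idh3g, and by NADP-dependent enzymes, cytosolic IDH1 and mitochondrial IDH2. Idh1 (ENSMUSG00000025950.16, chr1:65158616-65186500, minus strand) was the second most abundant member in both libraries, at 257 and 207 TPM. Idh2 stood at 76.9 and 54.5 TPM, so that Idh1 was 3.35 and 3.80 times as abundant. Within the NAD-dependent enzyme the regulatory subunits were level with each other, Idh3b at 69.1 and 75.3 TPM and Idh3g at 70.3 and 71.7. The catalytic subunit Idh3a was lower, at 17.8 and 13.0 TPM. Idh3b exceeded it 3.87 and 5.77 times and Idh3g 3.94 and 5.50 times, the widest gap among the subunit pairs compared.

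The 2-oxoglutarate dehydrogenase subunits Ogdh (74.5 and 67.9 TPM) and Dlst (62.7 and 57.9 TPM), the E2 succinyltransferase, were close to each other. Succinyl-CoA ligase pairs 1 shared α subunit, Suclg1, with a β subunit that uses GDP (Suclg2) or ADP (Sucla2). Suclg1 stood at 49.8 and 44.6 TPM. Suclg2 stood at 13.7 and 10.1 TPM and Sucla2 at 21.5 and 30.5. The ADP-using form was the higher in both libraries, by 1.57 and 3.03 times, and the gap was wider in replicate 2 because the β subunits differed in opposite directions. Their scaled ratios of replicate 2 to replicate 1 were 0.732 (0.670 to 0.800) for Suclg2 and 1.28 (1.18 to 1.39) for Sucla2.

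Fh1, fumarase, stood at 23.8 and 29.6 TPM, below the malate dehydrogenases. Mitochondrial Mdh2 (137 and 111 TPM) and cytosolic Mdh1 (136 and 109 TPM), which together shuttle reducing equivalents across the inner membrane, could not be ranked. Their ratio was 0.990 and 0.981 here, and 1.21 and 1.12 in the second deposited quantification.

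The side reactions were uneven. Pcx, pyruvate carboxylase, which refills oxaloacetate from pyruvate, was below 1 TPM in both libraries at 0.28 and 0.39 TPM, from 27 and 54 counts. Me1, the cytosolic malic enzyme that makes NADPH, stood at 0.67 and 1.25 TPM, from 50 and 106 counts. Me2 (ENSMUSG00000024556.4), the mitochondrial malic enzyme that returns malate to pyruvate, stood at 26.2 and 14.0 TPM, or 39.1 and 11.2 times Me1. The Me1 side of that ratio rests on few reads. Pck2, the mitochondrial PEP carboxykinase, stood at 6.83 and 8.24 TPM.

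The glutamine group held the most abundant member. Glul (ENSMUSG00000026473.15, chr1:153899944-153909723, plus strand), which makes glutamine from glutamate and ammonia, stood at 353 and 227 TPM, from 22254 and 20124 counts. Its mean of 290 ± 89.3 TPM exceeded 95.6% of detected protein-coding genes. Glud1, glutamate dehydrogenase, which releases 2-oxoglutarate from glutamate, was the steadiest of the abundant members at 124 and 125 TPM. Of the aspartate aminotransferases, cytosolic Got1 (92.0 and 106 TPM) was above mitochondrial Got2 (54.1 and 44.5 TPM), by 1.70 and 2.38 times.

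By compartment, the 7 cytosolic members had a median of 92.0 and 106 TPM and the 23 mitochondrial members of 44.0 and 44.5 TPM. The ranges overlapped, since cytosolic Me1 was next to lowest of all members and mitochondrial Mdh2 and Glud1 were above 100 TPM in both libraries.

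The ratio between the libraries was taken from expected counts scaled by TMM, which sets the bulk of genes at a ratio near 1. A total of 28 members, all but Pcx and Me1, had a mean of at least 1 TPM and were compared with the 11106 genes of any kind that passed that limit. Acod1 was the only member higher in replicate 2 by more than 1.5-fold, where 12.3% of all genes were, and also the only one higher by more than 2-fold, where 4.81% were. Its ratio was 3.08 with a 95% counting interval of 2.81 to 3.37, a log2 ratio of 1.62. Lower in replicate 2 by more than 1.5-fold were 4 members of 28, Me2, Glul, Aco1 and Idh2, where 6.78% of all genes were. Me2 was the only member lower by more than 2-fold, where 2.53% were.

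Me2 had a ratio of 0.494 (0.457 to 0.535), or 2.02-fold lower in replicate 2, from 1489 and 1097 counts. Glul was 1.65-fold lower, Aco1 1.58-fold and Idh2 1.53-fold. The interval of Idh2 crossed the 1.5-fold limit, with a log2 ratio of -0.61 (-0.69 to -0.54). Scaled by total counts instead, Aco1 and Idh2 fell inside 1.5-fold and Me2 inside 2-fold, while Acod1, Me2 and Glul stayed beyond 1.5-fold. Such intervals cover the counting of reads, not the difference between 1 culture and another.

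**Figure D2:**
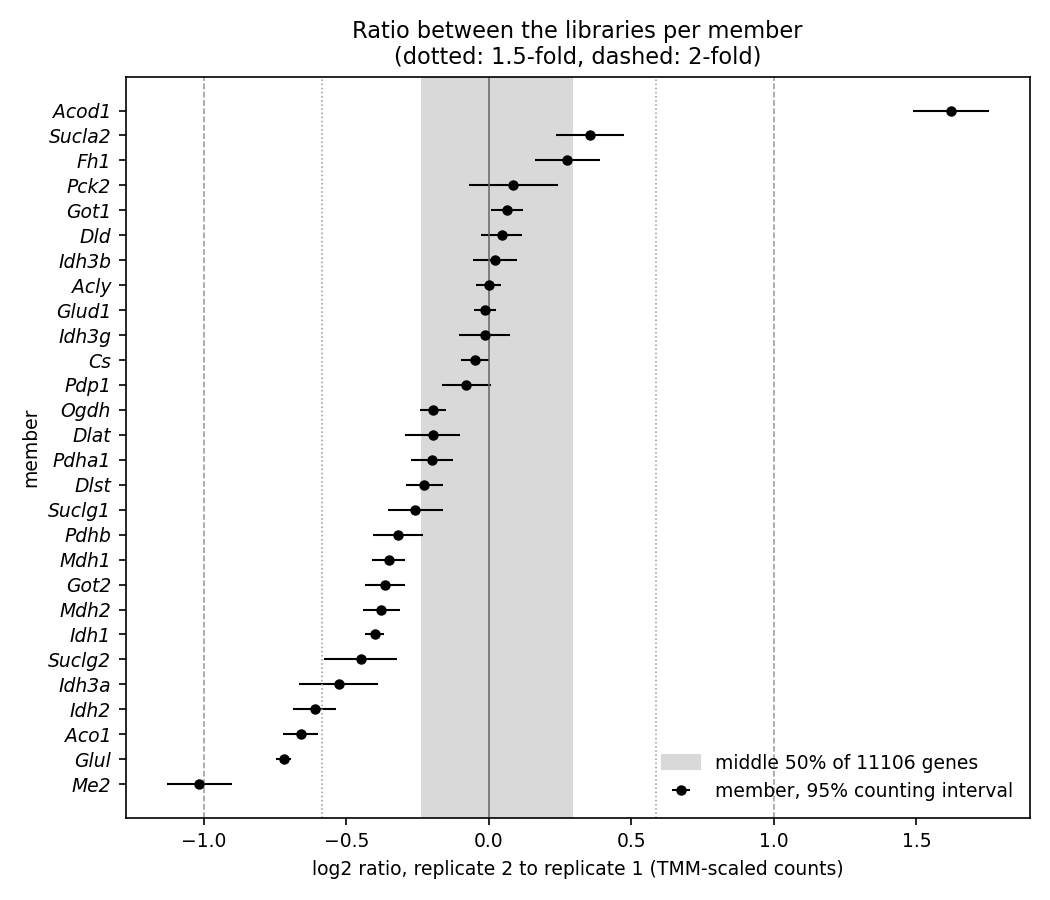
Log2 ratio of replicate 2 to replicate 1 for the 28 members with a mean of at least 1 TPM, in order, with 95% counting intervals. The grey band is the middle 50% of 11106 genes and dotted and dashed lines are 1.5-fold and 2-fold. Acod1, at 1.62, is alone on the right, Me2 is farthest to the left, and 14 members lie in the band.

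The other members lay within 1.5-fold by definition, which does not show that the set was steadier than genes at large. Of the 28 members, 14 lay between the quartiles of all 11106 genes, at log2 ratios of -0.23 and 0.29. That is the same share as of all genes. Over the 11106 genes the ratio was above 1 for 5562 and below 1 for 5544. It was above 1 for 7 members and below 1 for 21, with a median log2 ratio of -0.20 against 0.00 over all genes. With total counts the split was 12 above and 16 below and the medians were -0.08 and 0.12. The members' median was 0.20 below that of all genes on the log2 scale both times. Going from TMM to total counts shifts every log2 ratio alike, so this gap could not change. Across all the scalings run, 6 members were always higher in replicate 2 (Dld, Acod1, Sucla2, Fh1, Pck2 and Got1) and 16 always lower. The sign of the other 6 (Pdp1, Cs, Acly, Idh3b, Idh3g and Glud1) changed with the scaling. The SD of the log2 ratio was 0.465 over the members and 0.577 over all genes. The counting interval left out a ratio of 1 for 21 of the 28 members, and at high counts it does so for small differences. Neither this count nor that of members always higher or lower was taken over all genes.

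Acod1 differed in the same direction as the genes of the inflammatory response. All 15 early inflammatory genes were higher in replicate 2, 11 of them by more than 1.5-fold, with a median log2 ratio of 1.12 (Tnf, the inflammatory cytokine, 855 and 1691 TPM). All 15 interferon response genes were higher too, 13 by more than 1.5-fold, with a median of 1.26 (Irf1, an interferon-responsive transcription factor, 150 and 464 TPM). The log2 ratio of Acod1, 1.62, lay above both medians. What part the state of the cultures had in it was not tested.

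Me2, Glul, Aco1 and Idh2 differed in the direction of the cell cycle genes and neutrophil markers. All 12 cell cycle genes were lower in replicate 2, 11 by more than 1.5-fold, with a median log2 ratio of -1.29 (Pcna, the replication clamp, 376 and 236 TPM). Of the 12 neutrophil markers 6 reached 1 TPM in both libraries. All 6 were lower in replicate 2, 5 of them by more than 1.5-fold, with a median log2 ratio of -2.75. S100a9 stood at 183 and 37.1 TPM and S100a8 at 124 and 18.1. Among the granule genes, named after their values were seen, Ngp stood at 39.2 and 2.09 TPM, Ltf at 6.60 and 1.29, Camp at 1.86 and 0.12 and Elane at 1.11 and 0.04. Mmp8 (17.73 and 10.85 TPM) and Csf3r (49.01 and 43.80 TPM) differed least of the 6, with scaled ratios of 0.577 and 0.774. Below 1 TPM in both libraries were Ly6g, Mpo, Retnlg and Cxcr2, of which Mpo stood at 0.81 and 0.10 TPM. The part of dividing or granulocytic cells in the members' differences was not tested, and in bulk RNA fewer cells of a type cannot be told apart from less RNA per cell.

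**Figure D3:**
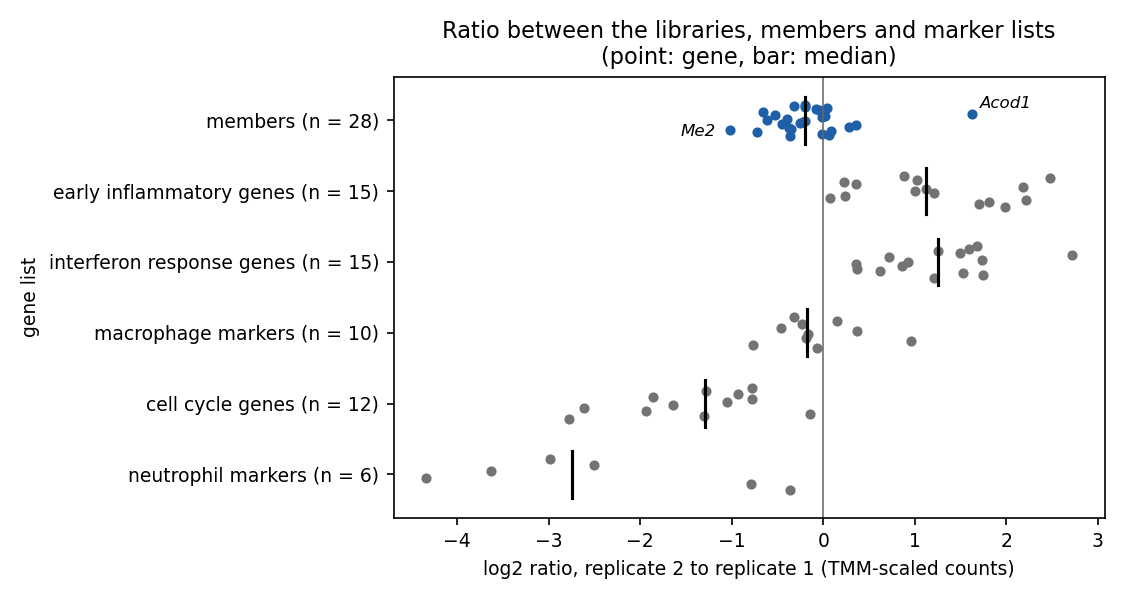
Log2 ratio of replicate 2 to replicate 1 for the members and for genes of 5 marker lists with a mean of at least 1 TPM (points), with each list's median (bar). The 15 early inflammatory and 15 interferon genes lie to the right of 0, beside Acod1, and the 12 cell cycle genes to the left.

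Another 35 genes of the same pathways, not members, had lower levels, with medians of 8.94 and 8.91 TPM. Of these, 30 reached 1 TPM in both libraries, the median log2 ratio of those with a mean of at least 1 TPM was -0.27, and 2 were higher (Slc38a2 and Acss2) and 2 lower (Asns and Clybl) by more than 1.5-fold. The last pair, an asparagine-making enzyme and one that acts on a product of itaconate breakdown, were named after their values were seen, at 4.56 and 2.92 TPM for Asns and 5.05 and 2.85 for Clybl. Among the cycle enzymes, the succinate dehydrogenase subunits Sdhb (162 and 126 TPM), Sdha (147 and 140) and Sdhd (126 and 113) were the highest, and Ogdhl, a homologue of Ogdh, was below 1 TPM. At the entry of pyruvate, the carrier subunits were unequal, Mpc1 at 359 and 316 TPM and Mpc2 at 39.2 and 27.9. The kinase Pdk1, which switches pyruvate dehydrogenase off, stood at 18.2 and 15.9 TPM, and Pdk4 was at 0.02 and 0.01 TPM.

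Among the other genes of glutamine and glutamate handling, the ratio between the libraries was widest for a transporter. Slc38a2, an amino acid transporter that carries glutamine, stood at 9.15 and 30.9 TPM, a scaled ratio of 3.22. Oat, ornithine aminotransferase, stood at 72.0 and 57.2 TPM.

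Around citrate, the mitochondrial citrate carrier Slc25a1 (61.6 and 58.4 TPM) and the dicarboxylate carrier Slc25a10 (35.2 and 35.7 TPM) were close in the libraries. Acss2, which makes cytosolic acetyl-CoA from acetate, stood at 4.80 and 8.91 TPM, a ratio of 1.74. Pck1, the cytosolic PEP carboxykinase, and Me3, a further mitochondrial malic enzyme, had 0 counts in both libraries, which allows up to 0.0794 and 0.0578 CPM, the level of 3 counts.

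The members have 173 annotated transcripts. For 16 of the 28 detected members, 1 transcript took at least 90% of the TPM in both libraries. Another 8 had more than 1 transcript at 20% or more in both, namely Dlat, Pdp1, Acly, Idh3a, Suclg2, Sucla2, Fh1 and Mdh1. Transcripts annotated as protein-coding with a complete coding sequence took at least 90% of the TPM for 22 of the 30 members in both libraries. None of these counts was taken over all genes, so they describe the members and do not set them apart.

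Short transcripts weighed more in TPM than in reads. Dlat-202, a non-coding processed transcript of 770 bases, took 45.5% and 31.7% of the TPM of Dlat but 10.1% and 5.6% of its reads. In the second quantification it took 53.9% and 40.1% of the TPM, above the coding Dlat-201 (46.1%) in replicate 1. Fh1-205 (542 bases, incomplete coding sequence) took 32.5% and 31.6% of the TPM of Fh1 and 5.5% and 4.8% of its reads. Mdh1-202 (549 bases, incomplete) took 29.4% and 28.6% of the TPM of Mdh1 and 6.3% and 5.5% of its reads. The gene-level TPM of these enzymes thus includes a large share from fragments not annotated to encode the whole enzyme. Counting only complete coding transcripts, Mdh1 stood at 91.3 and 77.5 TPM and Mdh2 at 101 and 88.7, Dlat at 14.5 and 14.0, and Fh1 at 15.5 and 20.1.

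Idh3a was divided between the coding Idh3a-205 (59.5% and 59.4% of TPM) and the retained-intron transcript Idh3a-203 (40.3% and 34.9%). In the second deposited quantification Idh3a-205 held 33.0% and 28.7%, Idh3a-203 held 7.9% and 0.0%, and Idh3a-204, annotated as a target of nonsense-mediated decay, held 58.9% and 70.3%. The gene's level was alike in both, its mean in the second being 0.888 times that in the first, so the reads were found by both methods and divided differently. Mdh2-203, also annotated for nonsense-mediated decay, took 25.6% and 19.6% in the first and 2.2% and 2.1% in the second. Suclg2 showed the same disagreement, since Suclg2-204 held 61.5% and 79.2% in the first and 21.5% and 25.9% in the second. Shares of Idh3a, Mdh2 and Suclg2 transcripts are therefore uncertain. Mdh2, like Ogdh below, was singled out after its values were seen.

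Sucla2 was divided between Sucla2-201 (48.4% and 57.3%) and Sucla2-203 (51.1% and 42.1%), both with a coding sequence of 1389 bases. In the second quantification Sucla2-201 held 63.2% and 67.2% and Sucla2-203 held 36.4% and 32.3%, so their order in replicate 1 depends on the quantification. Pdp1 was divided between Pdp1-202 (69.5% and 61.4%) and Pdp1-203 (20.4% and 23.4%), with coding sequences of 1689 and 1614 bases. In the second quantification Pdp1-202 held 49.9% and 54.7% and Pdp1-203 only 10.1% and 11.3%. The shares of both genes' transcripts are therefore uncertain too.

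The alternative exons of Acly and Ogdh printed above gave like shares in both quantifications. Transcripts that include the 30-base exon of Acly held 46.9% of its reads in replicate 1 (95% Wilson interval 45.8% to 48.1%) and 40.0% in replicate 2 (39.1% to 40.9%). By TPM in the second quantification they held 47.2% and 42.2%. Both forms were thus abundant, the form without the exon being the larger in both libraries. The remaining Acly reads were mostly assigned to Acly-201, which took 32.3% and 49.4% of TPM, and to Acly-207, which was given 21.4% and 10.4% in the first quantification and 0.0% in both libraries in the second.

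In Ogdh the 103-base exon prevailed. Transcripts with it held 90.7% of the reads in replicate 1 (90.0% to 91.4%) and 85.3% in replicate 2 (84.5% to 86.0%), and transcripts with the 91-base exon held 9.0% (8.4% to 9.7%) and 14.6% (13.9% to 15.3%). In the second quantification, by TPM, the 91-base exon held 8.5% and 14.2%. The intervals of the libraries do not overlap for either gene. They cover counting error only, the reads were assigned by the quantification and are not junction counts, and with 1 library on each side the difference has no replicate check.

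**Figure D4:**
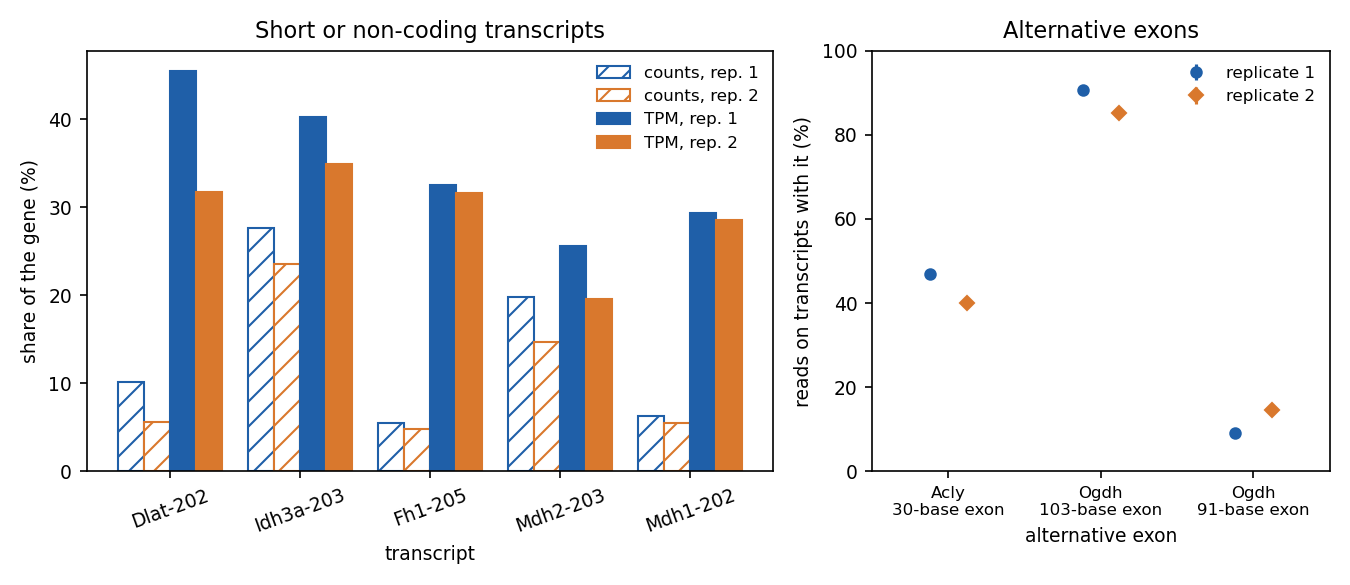
Left, share of the gene's reads (hatched bars) and of its TPM (solid bars) for 5 short or non-coding transcripts in replicate 1 (blue) and replicate 2 (orange). Right, share of reads on transcripts that hold each alternative exon, with 95% Wilson intervals smaller than the symbols. Dlat-202 takes 10.1% of reads and 45.5% of TPM in replicate 1, and the 91-base exon of Ogdh goes from 9.0% in replicate 1 to 14.6% in replicate 2.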

How the data were processed

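Polyadenylated RNA of 2 libraries in 1 group was measured. Per the file headers, the authors deposited expected counts, TPM and the percent of each gene held by each transcript (whole or fractional expected counts, not normalized), plus a second table of estimated counts and TPM per transcript, used as an alternative. The files name assembly mm10 and annotation M21. Quantification tools and versions: not given in the sources used here. Reads shared between near-identical copies were assigned by those tools, and 24 members had whole counts in both libraries and 6 did not (Pdha1, Pdhb, Suclg2, Me1, Glul and Got2).

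Entries that name no gene held 0.0891% and 0.0698% of counts and were left out of depth and ratios. TPM was used as deposited. The median log2 ratio of replicate 2 to replicate 1 over all genes was 0.089 higher by TPM than by TMM-scaled counts. Counts were rounded and scaled by TMM (edgeR 4.0.16, filterByExpr, 12266 genes, R 4.3.3; DESeq2 1.42.0 size factors as an alternative). Counting intervals for ratios are exact Clopper-Pearson intervals at 95% and for shares Wilson intervals (SciPy 1.17.1). Without molecular identifiers, reads are not independent molecules, so intervals and the limit of 3 counts behind a 0 cover counting error only. Ratio code was tested on simulated data. Nothing but the labels says that the libraries came from separate cultures.

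The members and lists were chosen with earlier results of these data known. Named were all members, their transcripts at 20% or more of TPM in both libraries where there was more than 1, in other pathway lists the 3 highest genes and those below 1 TPM, and in marker lists the 2 highest. Some genes named by this rule are not reported here. All 162 symbols were matched, 1 of them with 2 identifiers (Nnt), of which the one with more reads was used.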

Additional observations from a re-analysis of the deposited data

How the results depend on the processing

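Of 76 alternatives run, 65 left the value within its spread (or the count within 1.5-fold). For each pair ratio the spread was the SD of the 2 libraries, and a value from 1 library alone always lies within it. Those settings could not come out as moved, so the 65 includes outcomes fixed in advance. The median level of the members, 48.2 TPM, was 40.2 in the second quantification and 56.4 with TPM rescaled to protein-coding genes. The 5 members beyond 1.5-fold became 3 with total counts and 3 with TPM and a pseudocount of 1 (Acod1, Me2 and Glul). The 2 beyond 2-fold became 1 (Acod1) with total counts and with TPM at pseudocounts of 1 and 0.1. The log2 ratio of Mdh1 to Mdh2 reversed from -0.02 to 0.22 in the second quantification and was -0.17 from complete coding transcripts only, a setting chosen after seeing the data. There, Idh3a to Idh3b moved from -2.24 to -2.93 and Idh3a to Idh3g from -2.22 to -2.85, since only 59.5% and 59.4% of the TPM of Idh3a is on such transcripts. The log2 ratio of Acod1 lay between 1.57 and 1.74 in all settings.

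With 1 library at a time, members detected ranged from 28 to 29, their median level from 46.7 to 51.9 TPM, and the log2 ratios from 1.74 to 1.93 (Idh1 to Idh2), -0.03 to -0.01 (Mdh1 to Mdh2), 0.77 to 1.25 (Got1 to Got2), -5.29 to -3.49 (Me1 to Me2), -1.60 to -0.65 (Suclg2 to Sucla2), -0.57 to -0.46 (Pdha1 to Pdhb), -2.53 to -1.95 (Idh3a to Idh3b) and -2.46 to -1.98 (Idh3a to Idh3g). No paired analysis was possible because there is 1 group. Depth limits Pcx and Me1, whose levels rest on 27 to 106 counts. Their posterior mean TPM, the authors' other estimate, was 1.71 and 1.70 for Pcx and 1.87 and 2.15 for Me1, above their TPM.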
